A study of Mus musculus with 11 samples.

Results

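Ptprc, Ptprv, Cd55, Etnk2, Tnfsf4, Serpine2 and Wdfy1 are 7 genes of mouse chromosome 1, out of 24421 genes in the deposited count table, and all 7 were among the 13711 genes that passed the filter on low counts. Ptprc was included because it encodes CD45, the surface marker that tells the donor cells apart. The other 6 were included because KO and WT libraries differed at D0 and D2, or strongly at D2. Those same libraries therefore chose the genes, and the KO against WT values below describe them, with no test. RNA-seq was run on natural killer (NK) cells carrying Ly49H, an activating receptor for a mouse cytomegalovirus (MCMV) protein. The cells were sorted from spleens of C57BL/6 mixed bone marrow chimeras, in which LDHA-deficient (KO) and wild-type (WT) marrow share a host, and in vivo MCMV infection is the labelled treatment of every sample. The groups were KO D2 (n = 3), WT D2 (n = 3), KO D0 (n = 3) and WT D0 (n = 2).

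KO cells carried CD45.2 and WT cells carried CD45.1 in every chimera, so the LDHA genotype and the CD45 allele cannot be told apart in any KO against WT value. The labels do not give how Ldha was deleted or in which cells. D0 and D2 are taken from the sample titles, although another label gives all 11 libraries as taken 2 days after infection. For the libraries titled WT the genotype label reads as either genotype, and they were grouped by title. Per the labels each library is from a single mouse, with no pooling. Whether a KO and a WT library of the same number came from the same chimera is not given.

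CD45.1 and CD45.2 are alleles of Ptprc, and a congenic strain that carries one of them usually also carries the stretch of chromosome 1 around it from the strain that supplied the allele. CD45 is a receptor-type tyrosine phosphatase of all nucleated blood cells that removes an inhibitory phosphate from Src-family kinases, and NK cells need it for cytokine release through their activating receptors. The other genes are of unlike kinds. Ptprv is another gene of the receptor-type phosphatase family, but RefSeq classes it as a transcribed pseudogene. The rest encode a complement brake (Cd55), a costimulatory ligand (Tnfsf4), a secreted protease inhibitor (Serpine2), a phospholipid enzyme (Etnk2) and an endosomal adaptor (Wdfy1).

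The members span 81.7 Mb of chromosome 1 (build GRCm38.p6, mm10). Ptprc (Entrez 19264) lies at chr1:138062859-138175756 on the minus strand, Ptprv (Entrez 13924) at chr1:135108498-135132575 on the minus strand and Etnk2 (Entrez 214253) at chr1:133363463-133380318 on the plus strand. Cd55 (Entrez 13136) lies at chr1:130429798-130465009 on the minus strand and Tnfsf4 (Entrez 22164) at chr1:161395438-161418206 on the plus strand. Serpine2 (Entrez 20720) lies at chr1:79794317-79858665 and Wdfy1 (Entrez 69368) at chr1:79702262-79776143, both on the minus strand. From the start of Ptprc the starts of Ptprv, Etnk2 and Cd55 were 3, 4.7 and 7.6 Mb away, that of Tnfsf4 23.3 Mb, and those of Serpine2 and Wdfy1 58.3 and 58.4 Mb. Serpine2 and Wdfy1 are near neighbours, with 18.2 kb from the end of Wdfy1 to the start of Serpine2, and their genotype differences ran in opposite directions.

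RefSeq promoter sequences (250 bases before to 50 after a gene's start) were available for 4 of the 7 members, namely Cd55, Etnk2, Serpine2 and Ptprc. Each sequence belongs to 1 RefSeq start site, and Ptprc has more than 1 such site. The start site of the Cd55 window lies 2.27 kb inside the annotated gene, downstream of the gene's 5′ end. Ptprv, Tnfsf4 and Wdfy1 are named only. The 3 sequences of members that were higher in KO are printed so that their shared and unlike features can be read beside the values, together with that of Cd55b, the neighbouring copy of Cd55, which was not higher in KO. Each runs 5′ to 3′ on the gene's own strand, and capitals mark matches to the motifs searched.
Cd55, chr1:130462695-130462994, minus strand: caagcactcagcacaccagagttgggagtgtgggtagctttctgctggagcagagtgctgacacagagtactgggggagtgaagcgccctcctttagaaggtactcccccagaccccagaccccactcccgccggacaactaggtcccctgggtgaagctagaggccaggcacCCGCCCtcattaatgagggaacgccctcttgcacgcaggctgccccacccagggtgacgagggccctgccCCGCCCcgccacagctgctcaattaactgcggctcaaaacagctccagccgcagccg
Cd55b, chr1:130422994-130423293, minus strand: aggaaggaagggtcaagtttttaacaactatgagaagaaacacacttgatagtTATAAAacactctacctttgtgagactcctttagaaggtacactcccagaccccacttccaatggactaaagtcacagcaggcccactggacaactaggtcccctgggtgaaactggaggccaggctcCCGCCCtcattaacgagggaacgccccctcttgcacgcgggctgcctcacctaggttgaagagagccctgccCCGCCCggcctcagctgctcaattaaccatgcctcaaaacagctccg
Etnk2, chr1:133363322-133363621, plus strand: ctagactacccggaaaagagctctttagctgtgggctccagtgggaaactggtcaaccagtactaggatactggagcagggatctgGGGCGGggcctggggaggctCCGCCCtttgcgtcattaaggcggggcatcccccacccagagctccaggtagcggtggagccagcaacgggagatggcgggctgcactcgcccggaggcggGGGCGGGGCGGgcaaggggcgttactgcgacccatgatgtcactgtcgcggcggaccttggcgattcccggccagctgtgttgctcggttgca
Serpine2, chr1:79858616-79858915, minus strand: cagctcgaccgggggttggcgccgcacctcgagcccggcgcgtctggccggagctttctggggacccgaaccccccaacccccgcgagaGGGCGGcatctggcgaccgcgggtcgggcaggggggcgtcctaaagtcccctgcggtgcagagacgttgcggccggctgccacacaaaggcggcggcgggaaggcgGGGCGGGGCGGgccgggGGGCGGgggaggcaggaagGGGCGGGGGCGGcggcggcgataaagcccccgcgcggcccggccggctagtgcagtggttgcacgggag

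The motifs were searched on both strands. They were the TATA box TATAAA, the AP-1 element TGAGTCA or TGACTCA, the interferon gamma activated site TTCNNNGAA, the E-box CACGTG and the GC box GGGCGG. Of 32851 promoters of the same length, 13.6% held the TATA box, 5.2% the AP-1 element, 8.3% the interferon gamma site, 7.15% the E-box and 35.7% the GC box. The only motif found in the Cd55, Etnk2 and Serpine2 windows was the GC box, with 2, 4 and 6 matches, some of them adjoining. Cd55b had 2 GC boxes and 1 TATA box. Of the Ptprc windows, which are not printed, that at chr1:138175256-138175555 had 1 TATA box and that at chr1:138175077-138175376 had no match. GC content was 63.3% for Cd55, 65.3% for Etnk2, 77.7% for Serpine2 and 53.3% for Cd55b. Cd55 and Cd55b were identical at 213 of 323 aligned columns (65.9%), against 41.6% to 53.2% for the other pairs of the 4 sequences.

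Library totals lay between 21902080 and 24371249 counts in KO D2, between 23361983 and 27702679 in WT D2, between 19452460 and 24754212 in KO D0 and between 25510842 and 27992092 in WT D0. Levels are given in CPM, a gene's counts relative to the TMM-scaled total of its library. The detection floor of 3 counts corresponds to between 0.107 and 0.154 CPM and covers counting error only. Ldha lay between 91.1 and 114.6 CPM in the 6 KO libraries and between 563 and 3101 CPM in the 5 WT libraries. All 10 NK markers were above the floor in all 4 groups, summing to 12650 to 21960 CPM, while the 8 T cell markers summed to 12.8 to 30.7 CPM and the 6 B cell markers to 4.12 to 10.1 CPM. In bulk RNA such as this, fewer cells of a type and less RNA per cell cannot be told apart.

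KO and WT libraries did not overlap for 6 of the 7 genes at D2, where 33.8% of all tested genes showed no overlap, and for the same 6 at D0, where the share was 16.5%. Ptprc was the exception at both days. Cd55, Etnk2, Tnfsf4 and Serpine2 were higher in KO, and Ptprv and Wdfy1 were lower in KO. By edgeR's quasi-likelihood test 16.1% of all tested genes differed by genotype at D2 (1.61% higher and 14.5% lower in KO) and 0.153% at D0 (0.0948% higher and 0.0583% lower), at a Benjamini-Hochberg adjusted p under 0.05. The 7 genes were chosen on these contrasts, and nothing is read from their own calls.

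**Figure D1:**
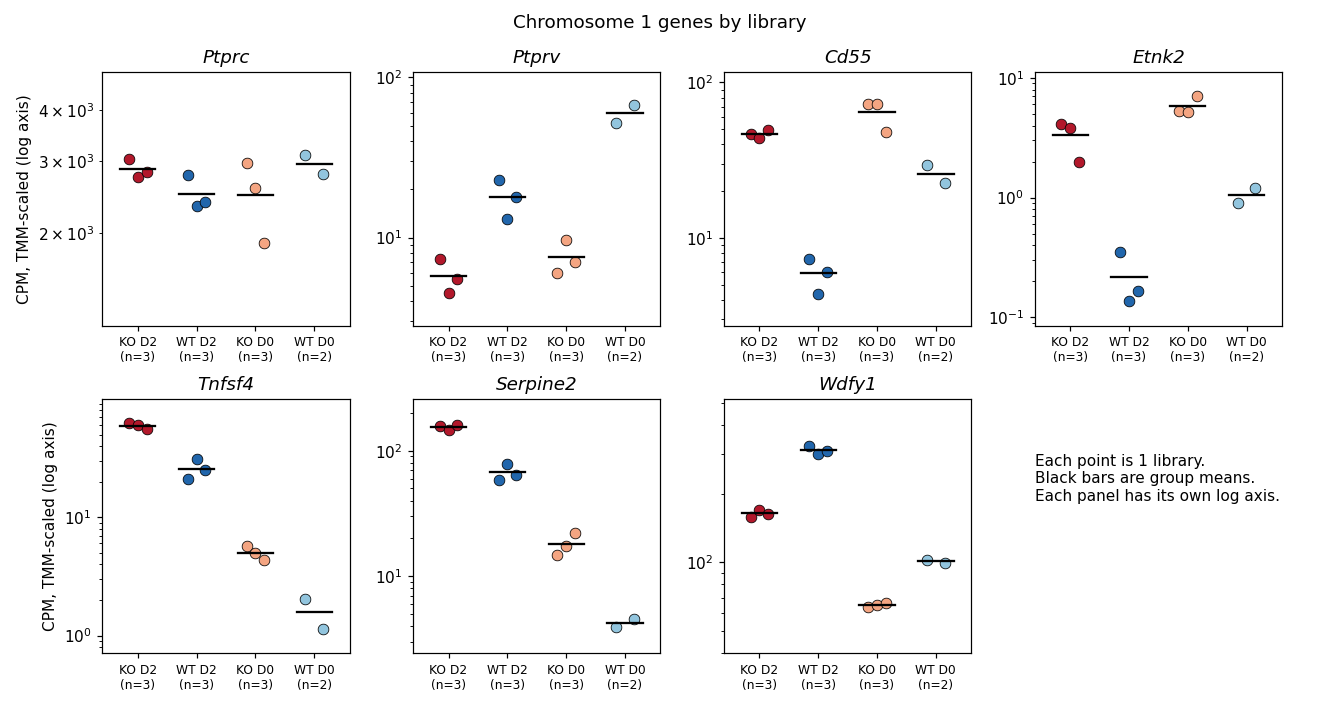
TMM-scaled CPM (log axis, 1 per panel) of the 7 genes in each of the 11 libraries, with KO and WT at D2 and then at D0. Points are libraries and black bars group means. The KO and WT points of Ptprc overlap at both days, while those of the other 6 genes stay apart.

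The 2 receptor-type phosphatase genes behaved unlike each other. For Ptprc the KO D2 libraries held 3032, 2746 and 2821 CPM, against 2776, 2329 and 2387 CPM in WT D2. The KO D0 libraries held 2963, 2570 and 1894 CPM, against 3102 and 2783 CPM in WT D0. KO and WT overlapped on both days, and the widest spread was that of KO D0, where replicate 3 was lowest. The WT D2 libraries lay just below the WT D0 libraries, without overlap. KO over WT stood at 0.20 (SE 0.15) on the log2 scale at D2 and -0.25 (SE 0.16) at D0, so its sign was opposite on the 2 days. Among libraries of the same number the ratio of KO to WT was 1.092, 1.179 and 1.182 at D2 and 0.828 and 0.681 at D0, on 1 side of 1 within each day. With the replicate block within day the values were 0.20 (SE 0.07) at D2 and -0.41 (SE 0.09) at D0, a narrower error than without it. RNA of the CD45.1 and CD45.2 alleles was counted together as 1 gene, and the table does not separate the alleles.

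Ptprv is a receptor-type tyrosine phosphatase gene that RefSeq classes as a transcribed pseudogene and GENCODE as a processed transcript. Its KO D2 libraries held 7.37, 4.50 and 5.52 CPM, against 22.95, 13.03 and 17.94 CPM in WT D2. Its KO D0 libraries held 6.03, 9.60 and 7.02 CPM, against 51.7 and 67.7 CPM in WT D0. Every KO library was below every WT library, and the 2 nearest libraries were 1.77-fold apart at D2 and 5.39-fold apart at D0. The log2 fold change was -1.63 (SE 0.26) at D2 and -2.98 (SE 0.28) at D0. The WT D2 libraries lay below the WT D0 libraries, whereas the KO D2 and KO D0 libraries overlapped. Ptprv and Ptpn7, its neighbour on the plus side, overlap by 738 bases, and 3.30% of the 31-base words of Ptprv transcripts also occur in Gm10535.

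Cd55 encodes decay-accelerating factor, a membrane-anchored protein that breaks up the C3 convertases of complement on the cell's own surface. Its KO D2 libraries held 46.9, 43.7 and 49.1 CPM, against 7.32, 4.34 and 6.05 CPM in WT D2. Its KO D0 libraries held 73.2, 73.1 and 48.3 CPM, against 29.2 and 22.7 CPM in WT D0. The KO libraries were above the WT libraries on both days, with 5.98-fold between the nearest 2 libraries at D2 and 1.65-fold at D0. The group means were 46.6 ± 2.71 CPM in KO D2 and 5.90 ± 1.49 CPM in WT D2, and 64.9 ± 14.3 CPM in KO D0 and 25.9 ± 4.64 CPM in WT D0 (SD). The log2 fold change was 2.98 (SE 0.22) at D2 and 1.32 (SE 0.23) at D0. Among libraries of the same number, the ratio of KO to WT was 6.41, 10.07 and 8.12 for replicates 1, 2 and 3 at D2, and 2.50 and 2.13 for replicates 2 and 3 at D0.

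The mouse has a second such gene, Cd55b, which ends 6.7 kb before Cd55 starts and whose transcripts share 11.17% of the 31-base words of Cd55. Reads from the shared stretches could be assigned to either gene. Cd55b had 1, 0 and 0 counts in KO D2 and 2, 2 and 1 counts in WT D2, all under the floor of 3 counts, so no fold is given there. At D0 it had 9, 7 and 1 counts in KO and 17 and 25 counts in WT (log2 fold change -1.61, SE 0.64, edgeR quasi-likelihood adjusted p = 1.0). The fitted direction of Cd55b at D0 was thus opposite to that of Cd55, without passing the test.

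Tnfsf4 encodes OX40 ligand, a trimeric surface protein that costimulates T cells through the receptor OX40 (Tnfrsf4). Its KO D2 libraries held 62.2, 60.3 and 55.2 CPM, against 21.1, 31.2 and 24.9 CPM in WT D2. Its KO D0 libraries held 5.73, 4.96 and 4.34 CPM, against 2.04 and 1.14 CPM in WT D0. KO was above WT on both days, and both D2 groups were above both D0 groups. On the log2 scale KO over WT was 1.20 (SE 0.20) at D2 and 1.66 (SE 0.26) at D0. The D0 value was 2.11 without WT D0 replicate 2 and 1.29 without WT D0 replicate 3, since each then rests on a single WT library, whose spread is taken from the other groups. Tnfrsf4 itself averaged 1.32 ± 0.113 CPM in KO D2 and 1.34 ± 0.212 CPM in WT D2 (SD, n = 3 each; log2 fold change -0.02, SE 0.28, edgeR adjusted p = 0.98).

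Serpine2 encodes protease nexin-1, a secreted serpin that inhibits thrombin, urokinase and tissue plasminogen activator. Its KO D2 libraries held 159, 147 and 161 CPM, against 58.9, 78.9 and 64.6 CPM in WT D2. Its KO D0 libraries held 14.9, 17.4 and 22.2 CPM, against 3.91 and 4.59 CPM in WT D0. The order of the 4 groups was that of Tnfsf4, from KO D2 through WT D2 and KO D0 to WT D0, with no overlap between neighbours in either gene. On the log2 scale KO over WT was 1.21 (SE 0.16) at D2 and 2.09 (SE 0.20) at D0. Of the protease genes it is known to act on, Plau averaged 0.258 CPM in KO D2 and 0.239 CPM in WT D2, and Plat 0.2996 CPM in KO D2 and 0.319 CPM in WT D2, both near the detection floor.

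Etnk2 encodes ethanolamine kinase 2, which starts the CDP-ethanolamine route to phosphatidylethanolamine. Its KO D2 libraries held 4.14, 3.84 and 1.99 CPM, against 0.349, 0.136 and 0.166 CPM in WT D2, where the counts were 7, 3 and 4. Its KO D0 libraries held 5.32, 5.16 and 7.02 CPM, against 0.905 and 1.20 CPM in WT D0. The 4 groups did not overlap and ran from KO D0 through KO D2 and WT D0 down to WT D2. With counts this low the ratio is best read with its counting error. Summed over libraries Etnk2 had 206 counts in KO D2 against 14 in WT D2, a ratio of 15.55 per unit of library size (95% exact interval 9.06 to 28.95, counting error only), and 442 in KO D0 against 66 in WT D0, a ratio of 5.44 (95% exact interval 4.19 to 7.16). These intervals treat reads as independent and leave out the spread between libraries. Etnk2 was chosen on this same contrast, so they describe counting error only and are no test of the difference. The fitted log2 fold change was 3.93 (SE 0.42) at D2, or 4.39 without WT D2 replicate 1, and 2.46 (SE 0.38) at D0. Its paralogue Etnk1 averaged 79.3 ± 1.05 CPM in KO D2 and 87.4 ± 5.50 CPM in WT D2 (SD, n = 3 each; log2 fold change -0.14, SE 0.15, edgeR adjusted p = 0.65).

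Wdfy1 encodes a protein with WD40 repeats and a FYVE domain that sits on early endosomes and, in mouse macrophages, aids Toll-like receptor 3 and 4 signalling. Its KO D2 libraries held 158, 170 and 163 CPM, against 325, 299.9 and 308 CPM in WT D2. Its KO D0 libraries held 63.9, 64.7 and 66.6 CPM, against 102.7 and 99.05 CPM in WT D0. KO was below WT on both days with little spread in any group, and the nearest libraries were 1.77-fold apart at D2 and 1.49-fold at D0. The log2 fold change was -0.93 (SE 0.09) at D2 and -0.63 (SE 0.10) at D0. Wdfy1 has a GC-rich stretch, reaching 78% in its richest 100-base window, and the tested genes in the same of 10 ranges of that measure had medians of -0.65 at D2 and -0.01 at D0 on the log2 scale. With a GC offset, chosen after seeing the data, the D2 value of Wdfy1 was -0.27 (SE 0.12), or -0.26 with the replicate block within day as well. At D0 every setting tried gave between -0.70 and -0.62.

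The remaining members lay in ranges of lower GC. The richest windows of Etnk2, Cd55 and Ptprv held 76%, 71% and 67% GC, and the D2 medians of their ranges were -0.17, 0.08 and 0.13 on the log2 scale. Ptprc and Tnfsf4 at 61% and Serpine2 at 60% fell in the lowest range, whose medians were 0.11 at D2 and -0.05 at D0. Over all settings tried, the D2 log2 fold change stayed between 2.80 and 3.14 for Cd55, between 3.70 and 4.39 for Etnk2, between 1.06 and 1.36 for Tnfsf4, between 1.10 and 1.33 for Serpine2 and between -1.85 and -1.44 for Ptprv. Etnk2 fell below the stricter filter of 5 CPM and has no value there.

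**Figure D2:**
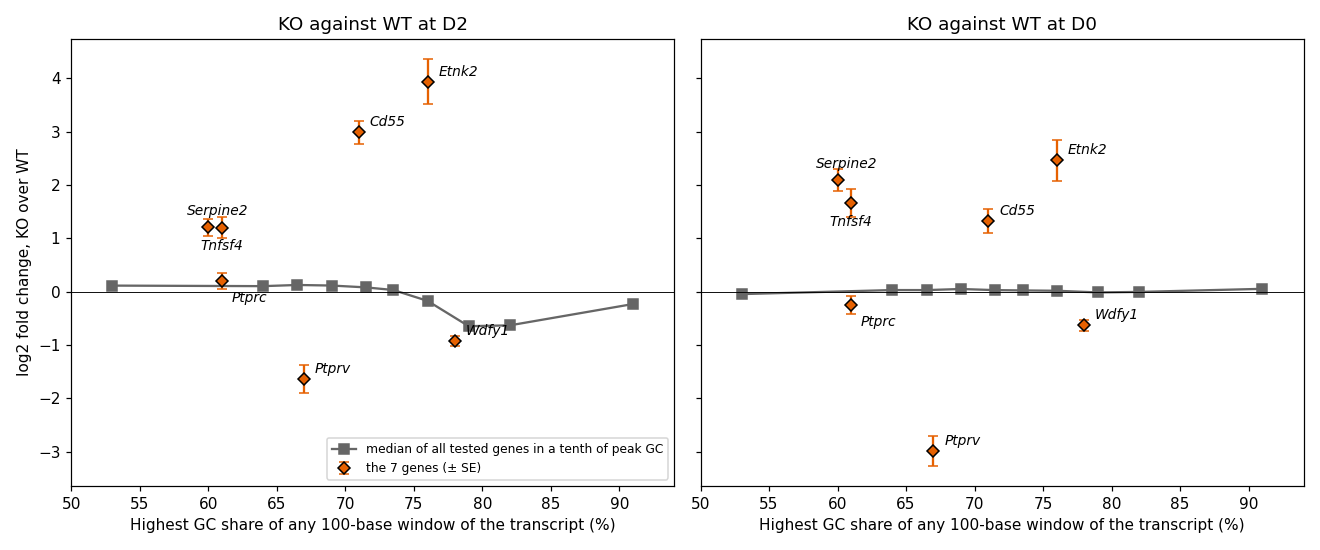
KO over WT log2 fold change (± SE) of the 7 genes at D2 and at D0 against the highest GC share of any 100-base window of the longest transcript, with the median of all tested genes in each of 10 ranges of that share. At D2 the medians fall to -0.65 in the range that holds Wdfy1, at D0 they stay near 0, and the other genes with a genotype difference lie away from the medians on both days.

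The change between days was averaged over both genotypes, a contrast the choice of genes did not use, and was tested. By edgeR's quasi-likelihood test with Benjamini-Hochberg adjustment over all tested genes, 6 of the 7 members changed, 3 upward and 3 downward. Over all genes 67.6% changed, 30.8% upward and 36.8% downward, so a call is the common outcome here. Tnfsf4 rose by 3.79 on the log2 scale (SE 0.18, adjusted p = 1.7e-09), Serpine2 by 3.54 (SE 0.14, adjusted p = 4.6e-10) and Wdfy1 by 1.48 (SE 0.07, adjusted p = 2.3e-09), each in KO and in WT. Etnk2 fell by 1.55 (SE 0.28, adjusted p = 3.1e-04), Cd55 fell by 1.31 (SE 0.15, adjusted p = 5.8e-06) and Ptprv fell by 1.06 (SE 0.19, adjusted p = 2.2e-04). Ptprc stood at -0.01 (SE 0.11, adjusted p = 0.93) and reached -0.21 (adjusted p = 0.026) with the GC offset, against adjusted p of up to 0.98 in the other settings. Summed macrophage and monocyte markers were 12.0 to 18.8 CPM in KO D2 and 13.09 to 17.83 CPM in WT D2, against 23.6 to 45.9 CPM in KO D0 and 41.4 to 61.8 CPM in WT D0, with all 6 markers above the floor in every group. Summed dendritic cell markers, mostly Itgax, which NK cells also express, were 279.3 to 341.7 CPM in KO D2 and 224.9 to 235.6 CPM in WT D2, against 643.5 to 762 CPM in KO D0 and 675.5 to 704.3 CPM in WT D0. Summed neutrophil markers were 0.271 to 0.307 CPM in KO D2 and 0.226 to 3.09 CPM in WT D2, against 0.599 to 13.6 CPM in KO D0 and 8.16 to 9.34 CPM in WT D0. Summed erythroid markers were 24.9 to 73.6 CPM in KO D2 and 12.6 to 117.8 CPM in WT D2. At D0 they were 39.3 to 357.5 CPM in KO and 76.0 to 306.7 CPM in WT. The part of these marker sums in the day differences was not tested.

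The day changes of the falling genes were of unlike size in the 2 genotypes. On the log2 scale D2 against D0 was -0.48 (SE 0.20) in KO and -2.14 (SE 0.23) in WT for Cd55, -0.81 (SE 0.31) in KO and -2.28 (SE 0.47) in WT for Etnk2, and -0.39 (SE 0.26) in KO and -1.73 (SE 0.27) in WT for Ptprv. For Cd55 and Etnk2 the WT decline was the larger on a lower starting level, and the gap to KO was wider at D2. For Ptprv the WT decline started from the higher level, and the gap to KO was narrower at D2. Tnfsf4 changed by 3.56 (SE 0.22) in KO and 4.02 (SE 0.27) in WT, Serpine2 by 3.10 (SE 0.17) in KO and 3.99 (SE 0.21) in WT, and Wdfy1 by 1.33 (SE 0.09) in KO and 1.62 (SE 0.11) in WT. The difference between genotypes in these changes follows from the contrasts that chose the genes and is given with no test.

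**Figure D3:**
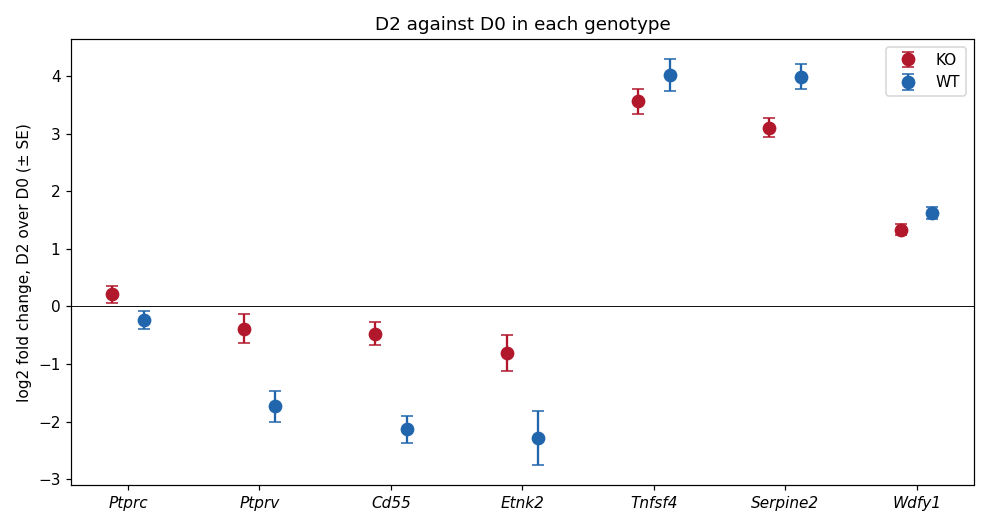
Fitted log2 fold change of D2 over D0 (± SE) for the 7 genes, KO left of WT. Tnfsf4, Serpine2 and Wdfy1 lie above 0 in both genotypes, while Ptprv, Cd55 and Etnk2 lie further below 0 in WT than in KO.

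Members were also compared by the shape of their profile, as the root mean square difference of mean-centred log2 CPM over the 11 libraries (0 for identical shape). All libraries are shared by every pair, so these values are descriptions. The nearest 2 members were Tnfsf4 and Serpine2 (0.36), followed by Cd55 and Etnk2 (0.59), and the farthest were Ptprv and Tnfsf4 (2.89). Among the 9354 genes that averaged 5 CPM or more, the gene nearest to Tnfsf4 was Cdkn1a on chromosome 17 (0.33, median over all genes 1.96), which encodes the cell cycle inhibitor p21. Cdkn1a averaged 279.9 CPM in KO D2 and 133.6 CPM in WT D2, and 30.4 CPM in KO D0 and 14.7 CPM in WT D0. It was also the second nearest to Serpine2 (0.49), ahead of Tnfsf8 (0.54), the gene of CD30 ligand, while Ms4a6d (0.56) was the third for Tnfsf4.

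Cd55 was nearest to Dglucy on chromosome 12 (0.44, median 1.53), which averaged 40.4 CPM in KO D2 and 8.02 CPM in WT D2, and 61.1 CPM in KO D0 and 37.0 CPM in WT D0. Slc15a2 (0.58) and As3mt (0.65) followed. Apart from Cd55, Etnk2 was nearest to the same Dglucy (0.80) and As3mt (0.95). Ptprv was nearest to Cxcr4 (0.70, median 1.30), a chemokine receptor gene also on chromosome 1, which averaged 7.22 CPM in KO D2 and 20.3 CPM in WT D2, and 13.7 CPM in KO D0 and 49.3 CPM in WT D0. Cdk5rap1 (0.84) and Slc25a46 (0.87) came next. Ptprc, with the flattest profile, was nearest to Gimap4 (0.05), Fasl (0.07) and Snap23 (0.07), and Wdfy1 to Orc2 (0.18) and Pdss1 (0.19).

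Along chromosome 1 the members stood among few other genes that differed at D0, though in the main edgeR fit their share was larger than on other chromosomes. Of 823 tested genes of chromosome 1 that are not members, edgeR called 3 higher and 2 lower in KO at D0, against 7 higher and 4 lower of 12868 genes on other chromosomes. At D2 it called 20 higher and 102 lower of the 823, against 197 higher and 1880 lower of the 12868. The D2 split on chromosome 1 moved to 51 higher and 103 lower with DESeq2, to 66 higher and 138 lower with the replicate block within day, to 42 higher and 63 lower with the GC offset, and to 97 higher and 93 lower with both the offset and that block (1345 higher and 1620 lower elsewhere). The D0 count of 5 on chromosome 1 was 0 without KO D0 replicate 2, WT D0 replicate 2 or WT D0 replicate 3, 1 without KO D2 replicate 3 or WT D2 replicate 3, 2 without KO D0 replicate 3, and 3 without KO D2 replicate 1 or 2. The D2 count of 20 higher was 5, 13 or 10 when KO library 1, 2 or 3 of that day was left out in turn. It was 8 or 9 when WT library 2 or 3 of that day was left out. At D0 only the compared groups gave 0, while the replicate block within day gave 7 higher and 18 lower, against 29 higher and 139 lower elsewhere. The 5 genes called at D0 were Cxcr4 (-1.84, SE 0.32, adjusted p = 0.048), Ifi208 (-0.79, SE 0.14, adjusted p = 0.048), Btg2 (0.99, SE 0.14, adjusted p = 0.019), Chit1 (3.62, SE 0.57, adjusted p = 0.027) and Phlda3 (adjusted p = 0.019). Phlda3 averaged 3.67 ± 2.43 CPM in KO D0 (SD, n = 3) but 0.0798 CPM in WT D0, under the floor, and no fold is given. All but Ifi208, an interferon-inducible gene, were also called at D2 in the same direction: Cxcr4 at -1.49, Btg2 at 1.223, Chit1 at 3.16 and Phlda3 at 2.15 on the log2 scale.

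Cxcr4, Btg2, Chit1 and Phlda3 lie with Cd55, Etnk2, Ptprv and Ptprc between 120 and 140 Mb. Of the 99 tested genes of that stretch that are not members, 3 were higher and 1 lower in KO at D0 (3.03% and 1.01%). At D2 6 were higher and 19 lower (6.06% and 19.2%). Over all tested genes the shares were 0.0948% higher and 0.0583% lower at D0, and 1.61% and 14.5% at D2. The neighbouring stretch from 140 to 160 Mb, which holds no member, had 0 of 62 genes called at D0. At D2 it had 4 higher and 13 lower (6.45% and 21%), shares close to those between 120 and 140 Mb. In the stretch of Serpine2 and Wdfy1, from 60 to 80 Mb, 0 of 87 genes that are not members were called at D0. At D2 0 were higher and 6 lower there (0% and 6.9%). Btg2, which encodes an antiproliferative protein, averaged 292 ± 29.8 CPM in KO D2 and 125 ± 4.19 CPM in WT D2, and 1019 ± 111 CPM in KO D0 and 512 ± 85.8 CPM in WT D0 (SD).

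**Figure D4:**
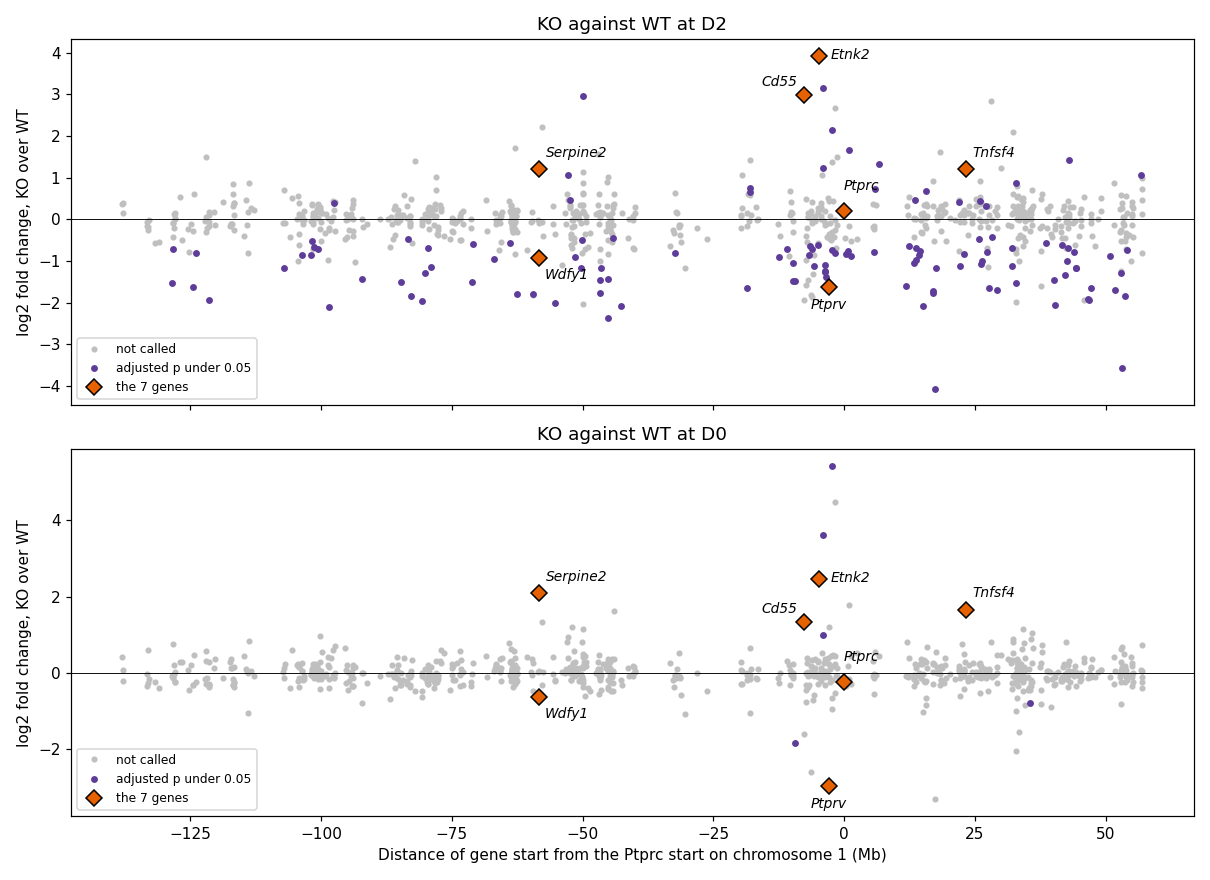
KO over WT log2 fold change of the tested genes of chromosome 1 at D2 and at D0, against the distance of each gene's start from that of Ptprc in Mb. Diamonds are the 7 genes and purple points other genes with adjusted p under 0.05. At D0 the purple points number 5, and 4 of them lie within 10 Mb below Ptprc.

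The members' immediate neighbours were called at D2 about as often as all genes. Of the 61 tested genes within 5 tested genes on either side of a member, 1 was higher and 8 were lower in KO at D2, where 1.61% of all genes were higher and 14.5% lower. The median log2 fold change of the 61 was -0.08 at D2 and 0.01 at D0, against 0.01 at D2 and 0.02 at D0 over all tested genes. With DESeq2 5 were higher and 9 lower at D2, with the replicate block within day 5 higher and 11 lower, and with the GC offset and that block 9 higher and 7 lower, so the split of calls depended on the setting. An unadjusted edgeR p under 0.05 at D0 was found for 7 of the 61 neighbours, against 597 of the 13711 tested genes. After adjustment edgeR called only Cxcr4 at D0, but not with a mean of at least 5 CPM (adjusted p = 0.10) or with only the compared groups (adjusted p = 0.63). That call was lost without KO D0 replicate 2 or 3, without any 1 of the KO D2 replicates, without WT D0 replicate 2 or 3, and without WT D2 replicate 3 (log2 fold change -2.18 to -1.46, adjusted p = 0.076 to 0.35).

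Mrpl44, a mitochondrial ribosomal protein gene that lies between Wdfy1 and Serpine2 and overlaps Wdfy1 by 126 bases, stood at -0.08 at D2 (SE 0.13, edgeR adjusted p = 0.78) and 0.05 at D0. Ap1s3, on the other side of Wdfy1, stood at -0.02 at D2 (SE 0.30, adjusted p = 0.99). On the other side of Serpine2, Fam124b stood at 2.22 (SE 0.74, adjusted p = 0.062) on means of 0.303 CPM in KO D2 and 0.0634 CPM in WT D2, the WT level under the floor. Next to Ptprv, Ptpn7, a lymphoid phosphatase gene, stood at 0.45 (SE 0.17, adjusted p = 0.10). It passed with the replicate block within day (adjusted p = 7.2e-04) or across days (adjusted p = 0.028) and with DESeq2 (adjusted p = 0.036). It also passed with only the compared groups (adjusted p = 0.030) and with the GC offset and the block within day (adjusted p = 0.0055), but in no other setting. Ube2t, on the other side of Ptprv, encodes a ubiquitin-conjugating enzyme of the Fanconi anaemia pathway and stood at 0.52 (SE 0.21, adjusted p = 0.13). Ube2t passed with the replicate block within day (adjusted p = 0.011) or across days (adjusted p = 0.036) and with DESeq2 (adjusted p = 0.040). With the GC offset and the block within day it passed too (adjusted p = 0.020), but in no other setting.

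Fasl, which follows Tnfsf4 and encodes the death ligand FasL, stood at 0.16 at D2 (SE 0.13, edgeR adjusted p = 0.51). Prdx6, a peroxiredoxin gene before Tnfsf4, stood at 0.17 (SE 0.12, adjusted p = 0.44), and at 0.46 (adjusted p = 0.023) with the GC offset. Pfkfb2, a regulator of glycolysis after Cd55, stood at 0.48 (SE 0.20, adjusted p = 0.14), and passed with DESeq2 (adjusted p = 0.038). Beside Etnk2, Snrpe, a splicing protein gene, stood at 0.01 (SE 0.29, adjusted p = 0.99), and Plekha6 lay at or near the floor in both D2 groups. Beside Ptprc, Gm19705 stood at 1.49 (SE 0.57, adjusted p = 0.11) and Atp6v1g3, a proton pump subunit gene, at -0.44 (SE 0.46, adjusted p = 0.64). The called neighbours at D2 were 4930596I21Rik (1.66, adjusted p = 0.049), Mcm6 (-1.48), Cxcr4 (-1.49), Kdm5b (-1.39), Acsl3 (-1.80), Nek7 (-0.84), Ddx59 (-0.82), 2310009B15Rik (-0.75) and Ppp1r15b (-0.61). All of the lower ones except Cxcr4 had a richest window of at least 77% GC, and with the GC offset Kdm5b, Nek7, Ddx59, Acsl3 and 2310009B15Rik no longer passed. With no filter, 4930596I21Rik (adjusted p = 0.052) and Acsl3 (adjusted p = 0.056) were not called. With only the compared groups they were not called either (adjusted p = 0.060 and 0.066). The replicate block across days also removed the call of 4930596I21Rik (adjusted p = 0.057). Calls rested on single libraries as well. 4930596I21Rik was not called without any 1 library except WT D2 replicate 3 (adjusted p = 0.052 to 0.19). Acsl3 was not called without any 1 KO D2 or WT D0 replicate or without WT D2 replicate 2 or 3 (adjusted p = 0.052 to 0.23), and 2310009B15Rik without KO D2 replicate 1 or any 1 WT D2 replicate (adjusted p = 0.055 to 0.10) or with RLE scaling (adjusted p = 0.052).

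Genes that work with the members were read from 7 lists of 93 symbols, of which 84 were tested. At D2 edgeR called 0 higher and 13 lower in KO, against 1.61% higher and 14.5% lower over all genes, and the median log2 fold change of the 84 was 0.09. With DESeq2 it was 9 higher and 13 lower, and with the replicate block within day 18 higher and 18 lower, so the split of calls depended on the test. At D0 none was called by edgeR or by DESeq2. In edgeR 4 of the 84 had an unadjusted p under 0.05 at D0, against 597 of the 13711 tested genes. The smallest p at D0 in 4 of the lists was that of Lgals1, the gene of galectin-1 (0.21, SE 0.18), Ptpro (-1.23, SE 0.74), Pemt (0.68, SE 0.42) and Serpinb8 (-1.07, SE 0.48), each at adjusted p = 1.0. Of the 13, 10 were among the 28 listed genes with a richest window of at least 75% GC and 3 among the other 56.

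Of 13 CD45 partners and targets 4 were lower in KO at D2. Jak1 and Jak3, kinases of cytokine receptors, stood at -1.01 (SE 0.15, edgeR adjusted p = 5.4e-04) and -1.18 (SE 0.18, adjusted p = 7.4e-04), and Pag1, an adaptor that anchors the kinase Csk, at -0.86 (SE 0.18, adjusted p = 0.0039). Zap70 was the other. Lck, a Src-family kinase that CD45 acts on, averaged 827 ± 92.2 CPM in KO D2 and 704 ± 101 CPM in WT D2 (SD, n = 3 each; adjusted p = 0.32). Of 14 phosphatase genes 3 were lower, namely Ptpn1 (-1.02, SE 0.17, adjusted p = 0.0013), Ptpn11 (-1.11, SE 0.20, adjusted p = 0.0018) and Ptprk (-1.93, SE 0.55, adjusted p = 0.030). With the GC offset Jak1 stood at -0.34 (adjusted p = 0.061), Pag1 at -0.20 (adjusted p = 0.54), Ptpn1 at -0.34 (adjusted p = 0.085), Ptpn11 at -0.43 (adjusted p = 0.051) and Ptprk at -1.63 (adjusted p = 0.060) and so missed the threshold of 0.05, while Jak3 stood at -0.89 (adjusted p = 0.0029). Ptprk also lost its call with no filter (adjusted p = 0.057) and with only the compared groups (adjusted p = 0.063). The same held without KO D2 replicate 1 or 2 or WT D2 replicate 2 or 3 (adjusted p = 0.088 to 0.13).

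Of 10 complement regulators and receptors none was called in either direction at D2 or D0. Itgam, a chain of complement receptor 3, had the smallest p at D2 (0.54, SE 0.26, adjusted p = 0.23), and with the replicate block within day it stood at 0.51 (adjusted p = 4.8e-04). The other membrane regulators beside Cd55 included Cr1l at 0.13 (SE 0.12, adjusted p = 0.61) and Cd46 at 0.99 (SE 0.52, adjusted p = 0.26). Of 12 serpins, plasminogen activators and receptors none was called either, and the smallest p at D2 was that of Serpinb6a (-0.38, SE 0.15, adjusted p = 0.13). Of 13 phospholipid synthesis genes 1 was lower, Ptdss2, a phosphatidylserine synthase (-1.46, SE 0.27, adjusted p = 0.0023), and it stood at -0.79 (adjusted p = 0.026) with the GC offset.

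Of 11 genes of the OX40 receptor, its adaptors and NF-kappaB, 3 were lower in KO at D2. Nfkb2 and Relb, the subunits of the noncanonical NF-kappaB dimer, stood at -1.42 (SE 0.25, edgeR adjusted p = 0.0015) and -1.72 (SE 0.34, adjusted p = 0.0033), and the adaptor gene Traf6 at -0.78 (SE 0.13, adjusted p = 0.0012). Nfkb2 averaged 177 ± 21.6 CPM in KO D2 and 472 ± 165 CPM in WT D2, and Relb 28.8 ± 3.12 CPM in KO D2 and 95.05 ± 40.8 CPM in WT D2 (SD, n = 3 each). Both passed in every setting tried, whereas Traf6 stood at -0.11 (adjusted p = 0.62) with the GC offset. Of 13 genes around Wdfy1 and Toll-like receptors 3 and 4, 3 were lower: Traf6, Ripk1 (-1.27, SE 0.30, adjusted p = 0.0097) and Wdfy2 (-1.13, SE 0.35, adjusted p = 0.047). Ripk1 lost its call without KO D2 replicate 1 (adjusted p = 0.054) or WT D2 replicate 2 (adjusted p = 0.050). Wdfy2 lost its call with RLE scaling, with only the compared groups, with the GC offset, and without KO D0 replicate 2, KO D2 replicate 1 or 3, WT D0 replicate 2 or 3 or WT D2 replicate 2 or 3 (adjusted p = 0.056 to 0.18 over these libraries). Tlr3 averaged 4.73 ± 0.957 CPM in KO D2 and 2.86 ± 0.379 CPM in WT D2 (adjusted p = 0.061), and 0.594 CPM in KO D0 and 0.975 CPM in WT D0 (adjusted p = 1.0).

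**Figure D5:**
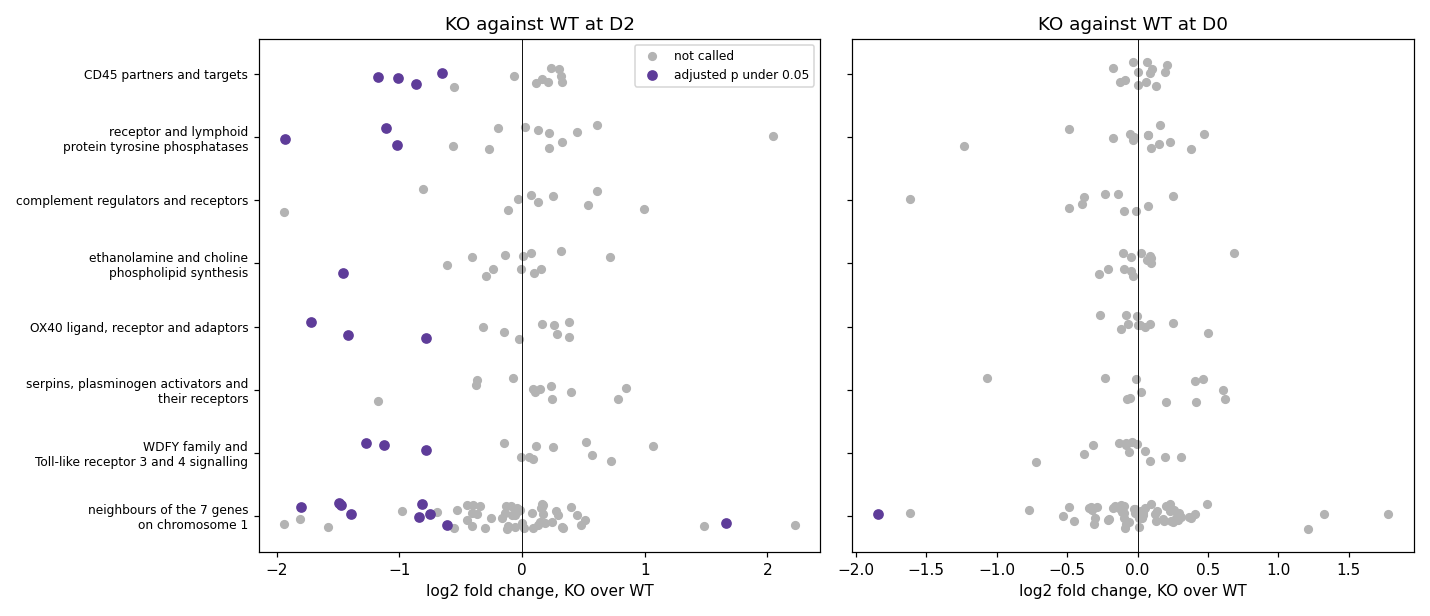
KO over WT log2 fold change of the tested genes of the 7 partner lists and of the 61 neighbours at D2 and at D0. Each point is a gene, purple where adjusted p is under 0.05. At D2 the 13 called partner genes all lie below 0, and at D0 the only purple point is Cxcr4.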

How the data were processed

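RNA-seq libraries from 11 sorted NK cell samples were analysed (KO D2, WT D2 and KO D0 with 3 each, WT D0 with 2), grouped by sample title. The authors deposited raw counts, as whole numbers, by Entrez gene ID. The submitters' processing notes name build mm10 and the tools Salmon 0.13.1, DESeq2 1.22.2, Trimmomatic 0.36 and bcl2fastq 2.20.0.422. Their roles are not given, so the counts may be rounded estimates, and reads of near-identical genes may be split unevenly. Per the labels' protocols, cDNA was amplified from low-input RNA. Of 24421 IDs, 24387 matched RefSeq GRCm38.p6 and the other 34 held at most 0.0244% of a library.

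The test was edgeR's quasi-likelihood F test (version 4.0.16 under R 4.3.3, robust, with TMM and filterByExpr), in 1 fit of 4 group means with 7 residual degrees of freedom. A gene counted as called when its p, adjusted by Benjamini-Hochberg over all 13711 tested genes, was under 0.05. SEs came from the F statistic. As a check of pairing, deviations from group means were correlated between KO and WT libraries of 1 number. At D2 this gave 0.217, 0.198 and 0.114, and at D0 0.0275 and 0.410. Libraries of unlike number gave -0.193 to 0.0051 at D2 and -0.410 to 0.376 at D0. The 2 WT D0 libraries deviate from their mean by equal and opposite amounts, so the D0 values cannot show pairing. The main fit had no block for the replicate number, so its calls do not use any pairing. Fits with a replicate block are given as alternatives. No labels say that a number marks a shared mouse or day. The p-values measure the spread between these libraries. 0 pairs of libraries held identical counts.

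The members, the 7 partner lists, the tests and the planned settings were chosen with earlier results of these data known. The genes named besides the members were Ldha, up to 3 called genes with the smallest p per list and comparison (or, with none called, the top gene by p), the nearest tested gene on each side of a member, any called gene among the 5 nearest on each side, and the 3 genes of at least 5 CPM with the most similar profile, of which 1 for Wdfy1 is not reported here. Zap70, Lck, Tnfrsf4, Etnk1, Plau, Plat, Cd46, Cr1l and Tlr3 were named for their role after their values were seen, and the 5 further chromosome 1 genes called at D0 because they are all of them.

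Alternatives were RLE scaling, DESeq2 1.42.0, no filter, a mean of at least 5 CPM, only the compared groups, a replicate block across days or within a day, and leaving out each library. A GC offset, alone or with the block within day, was added after the data were seen. It subtracts from each library the median deviation of genes in the same of 10 ranges of peak GC (richest 100-base window of the longest GENCODE M21 transcript), known for 93.5% of tested genes. The pipeline was tested on simulated data. Summed erythroid markers lay between 12.6 and 357.5 CPM (3 of 4 markers in the table).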

Additional observations from a re-analysis of the deposited data

Results flagged for a closer look

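For 7 of the named neighbours and partner genes the KO against WT difference at D2 was not the same as at D0, by the interaction term of the edgeR fit with Benjamini-Hochberg adjustment over all tested genes, which called 17 of 13711 genes upward and 784 downward. Mcm6, a replication helicase subunit gene near Cd55, stood at -1.48 at D2 and -0.02 at D0 (D2 minus D0 -1.46, SE 0.24, adjusted p = 0.0097). Among the phosphatase genes, Ptpn11 differed by -1.28 (SE 0.30, adjusted p = 0.029) and Ptpn1 by -1.11 (SE 0.26, adjusted p = 0.029). Among CD45 partners and targets, Pag1 differed by -1.06 (SE 0.26, adjusted p = 0.034), Jak3 by -1.001 (SE 0.27, adjusted p = 0.050, under the threshold before rounding) and Jak1 by -0.92 (SE 0.22, adjusted p = 0.032). Traf6 differed by -0.77 (SE 0.19, adjusted p = 0.038). At D0 all 7 lay between -0.18 and 0.19. All 7 were named because they were called at D2, a contrast that enters the interaction term. That choice favoured genes with a larger difference at D2 than at D0, so these adjusted p-values are no independent test. The richest 100-base windows of these 7 genes held 76% to 81% GC, a range in which the median of all genes also fell at D2, and the part of GC content in these interaction terms was not tested.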

How the results depend on the processing

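Under the 20 other settings no called fold change of a named gene changed sign, while the uncalled day change of Ptprc lay between -0.21 and 0.046. Genes called at D2 numbered 2207, and 3444 with the replicate block within day, the only setting that moved them over 1.5 times. Leaving out 1 library gave 1574 to 2408. Genes called at D0 numbered 21, and 38 with DESeq2, 11 with a mean of at least 5 CPM, 4 when fitted on the compared groups alone, 201 with the replicate block within day, 219 with the GC offset and that block, and 4 to 22 without 1 library. Scaling and test also moved the split at D2, from 221 higher and 1986 lower to 440 and 1762 with RLE, 697 and 1958 with DESeq2, 490 and 2025 on the compared groups alone, 900 and 2544 with the block within day, 680 and 1209 with the GC offset, and 1446 and 1714 with both. The 13 partner genes called at D2 were 22 with DESeq2, 22 with the replicate block across days, 36 with the replicate block within day, 24 with the GC offset and that block, and 9 to 17 without 1 library. The 9 neighbours called at D2 were 14 with DESeq2, 16 with the replicate block within day, 16 with the GC offset and that block, and 6 to 10 without 1 library. The 1 neighbour called at D0 was 0 with a mean of at least 5 CPM, 0 when fitted on the compared groups alone, 3 with the replicate block within day, 3 with the GC offset and that block, and 0 to 1 without 1 library. Partner genes called at D0 numbered 0 in every setting. For the day change, 9268 genes were called (8741 to 9398 without 1 library) and 6 members in every setting but the 5 CPM filter (5, since Etnk2 was not tested) and the GC offset (7). The cause of these shifts was not tested. With 2 WT D0 libraries, a fit without 1 of them assumes that the lone library varies like the other groups. Etnk2 in WT D2, Cd55b and Fam124b lie at or near the detection floor, which limits their folds.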

Other observations

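Between days the partner genes of the members were called about as often as all genes, in KO and WT averaged together. By edgeR's quasi-likelihood test with Benjamini-Hochberg adjustment 24 of the 84 tested partner genes were higher and 34 lower at D2 than at D0, against 30.8% higher and 36.8% lower over all tested genes, and the genes named here were chosen after their values were seen. Of 13 CD45 partners and targets 8 were lower and 0 higher at D2. Cd2, an adhesion receptor gene of T and NK cells, fell by 2.27 on the log2 scale (SE 0.09, adjusted p = 4.6e-10) and Lck fell by 0.69 (SE 0.10, adjusted p = 4.3e-05). Of 10 complement regulators and receptors 5 were lower and 0 higher, among them Itgam, which fell by 2.24 (SE 0.20, adjusted p = 4.5e-07). Of 12 serpins, plasminogen activators and receptors 6 were higher and 3 lower. Serpinb9, which encodes an inhibitor of granzyme B, rose by 2.60 (SE 0.13, adjusted p = 2.3e-09) and averaged 4281 ± 776 CPM in KO D2 and 4016 ± 483 CPM in WT D2, compared with means of 674 CPM (KO D0) and 698 CPM (WT D0).

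Of 13 phospholipid synthesis genes 4 were higher and 6 lower at D2. Etnk1 rose by 0.79 (SE 0.11, edgeR adjusted p = 3.8e-05) and Selenoi, an ethanolamine phosphotransferase gene, rose by 1.56 (SE 0.09, adjusted p = 1.2e-08), while the choline kinase genes Chka and Chkb fell by 1.16 (SE 0.17) and fell by 1.62 (SE 0.10). Of 11 genes of the OX40 receptor, its adaptors and NF-kappaB, 6 were higher and 2 lower. Traf1 rose by 1.23 (SE 0.13, adjusted p = 1.7e-06), and Tnfrsf4 stood at -0.19 (SE 0.20, adjusted p = 0.42). Among the 13 genes around Wdfy1 and Toll-like receptors 3 and 4, 5 were higher and 4 lower, Tlr3 rising by 2.27 (SE 0.20, adjusted p = 4.9e-07). The macrophage, dendritic cell and neutrophil marker sums given with the members' day changes also differed between days, and their part here was not tested.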
